A study of Mus musculus with 14 samples.

Results

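The contractile genes of smooth muscle and the genes of pericytes were followed through 4 populations of mouse prostate cells. The set holds 33 genes of 17149 measured, chosen by name: 6 of the contractile filaments, 10 regulators of the thin filament and of contraction, the co-activator gene *Myocd*, 8 of the cytoskeleton and of adhesion, 2 of the membrane and its calcium handling, and 6 of pericytes. They are covered by 71 probe sets, and each gene is given by its brightest probe set, judged by the mean of its log2 values over the 14 arrays. All 33 of these probe sets passed the filter on low values (a signal above 20 on at least 1 array).

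UGE is the epithelium of the urogenital sinus of C57BL/6 embryos at day 16, from which the prostate buds, and it was put on 3 arrays. The adult populations came from the duct region next to the urethra of C57BL males (C57BL/6 in the methods) of 6 to 8 weeks and were sorted by the surface antigen Sca-1: Sca-1Hi cells with the most of it (3 arrays), Sca-1Lo cells with less (4 arrays) and Sca-1Neg cells without it (4 arrays), the reference here. No mutation or treatment is named for any group, Sca-1 is the only antigen named for the gates, and no source used here says how many animals were pooled or whether the samples of a population came from separate animals, so the p-values measure the spread between these samples. The methods describe labelled cells divided by their level of Sca-1 into the 3 adult populations, so adult samples can be fractions of the same preparation. Which samples were sorted together is not stated, and the main tests treat the samples as unpaired. Each sample had 1 Affymetrix MOE430 2.0 array, read as linear PLIER signals, and signals below are given in the order of the replicate numbers of the labels.

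Smooth muscle cells of the prostate lie in sheets around the ducts and in vessel walls. They contract when calcium and calmodulin activate myosin light chain kinase, and many of their contractile genes are switched on by serum response factor (*Srf*) together with myocardin (*Myocd*) at a short DNA element, the CArG box. Pericytes wrap capillaries, share part of the contractile set, and are recognised by *Rgs5*, *Pdgfrb* and *Cspg4*. Neither cell type is epithelial. These are bulk samples, in which fewer cells of a type and less RNA per cell cannot be told apart.

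In the promoters that RefSeq (GRCm38.p6) gives for 27 of the 33 genes, from 250 bases before to 50 bases after the start, an exact CArG box was found in *Myl9* and *Vcl*. The box reads alike on both strands. *Myl9* and *Vcl* are 2 of the 27 genes (7.41%), against 1.81% of all genes with a promoter, and the box occurs in 1.63% of all 32851 promoters. The elements are shown in capitals with 10 bases on either side, together with those of *Acta2*, which differ from the box at 1 position each. *Myl9* lies on the plus strand at chr2:156775293-156775322, its element 161 to 152 bases before the start. *Vcl* lies on the plus strand at chr14:20929161-20929190, its element 227 to 218 bases before the start. *Acta2* lies on the minus strand, with its first element (84 to 75 bases before the start) in chr19:34255438-34255467 and its second (34 to 25 bases before the start) in chr19:34255388-34255417.
Myl9: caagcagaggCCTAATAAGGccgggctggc
Vcl: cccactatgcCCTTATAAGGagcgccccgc
Acta2, first element: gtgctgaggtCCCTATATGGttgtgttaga
Acta2, second element: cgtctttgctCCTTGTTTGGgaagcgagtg
With at most 1 mismatch allowed, 11 of the 27 genes held a box in the window (40.7%), and so did 23.8% of all 27025 genes with a promoter. The element CATTCC, to which TEAD factors bind, was found on either strand in 10 of the 27 (37.0%) and in 16.6% of all genes. Among the 12 genes with a promoter that are grouped here by name as largely restricted to muscle, 0 held an exact box. A box with at most 1 mismatch was held by 4 of these 12 (33.3%) and CATTCC by 3 (25.0%). *Actg2*, *Myh11*, *Tagln*, *Myocd*, *Itga7* and *Pdgfrb* had no promoter in the table. *Myl9* and *Vcl*, which carry the exact box, differed in their calls: *Myl9*, the regulatory light chain of myosin, differed from Sca-1Neg by -5.67 in UGE and -2.48 in Sca-1Hi on the log2 scale and passed the test in both, whereas *Vcl* (vinculin, which ties actin to adhesion sites) differed by -0.65 and -0.39 and passed in neither.

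The genes were highest in Sca-1Neg. For all 33 the mean log2 signal of Sca-1Neg was above those of the 3 other populations, and 27 of them followed the order UGE, Sca-1Hi, Sca-1Lo, Sca-1Neg from low to high. The exceptions were *Ppp1r12b*, *Synpo2* and *Itga8*, which were lowest in Sca-1Hi and next lowest in Sca-1Lo, *Flna* and *Rgs5*, which were lowest in Sca-1Hi and next lowest in UGE, and *Vcl*, with UGE lowest and Sca-1Lo below Sca-1Hi. Neighbours in these orders often did not differ beyond their spread, as the tests below give for each pair. The 3 populations were tested against the same 4 Sca-1Neg arrays, so those comparisons share that reference.

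**Figure D1:**
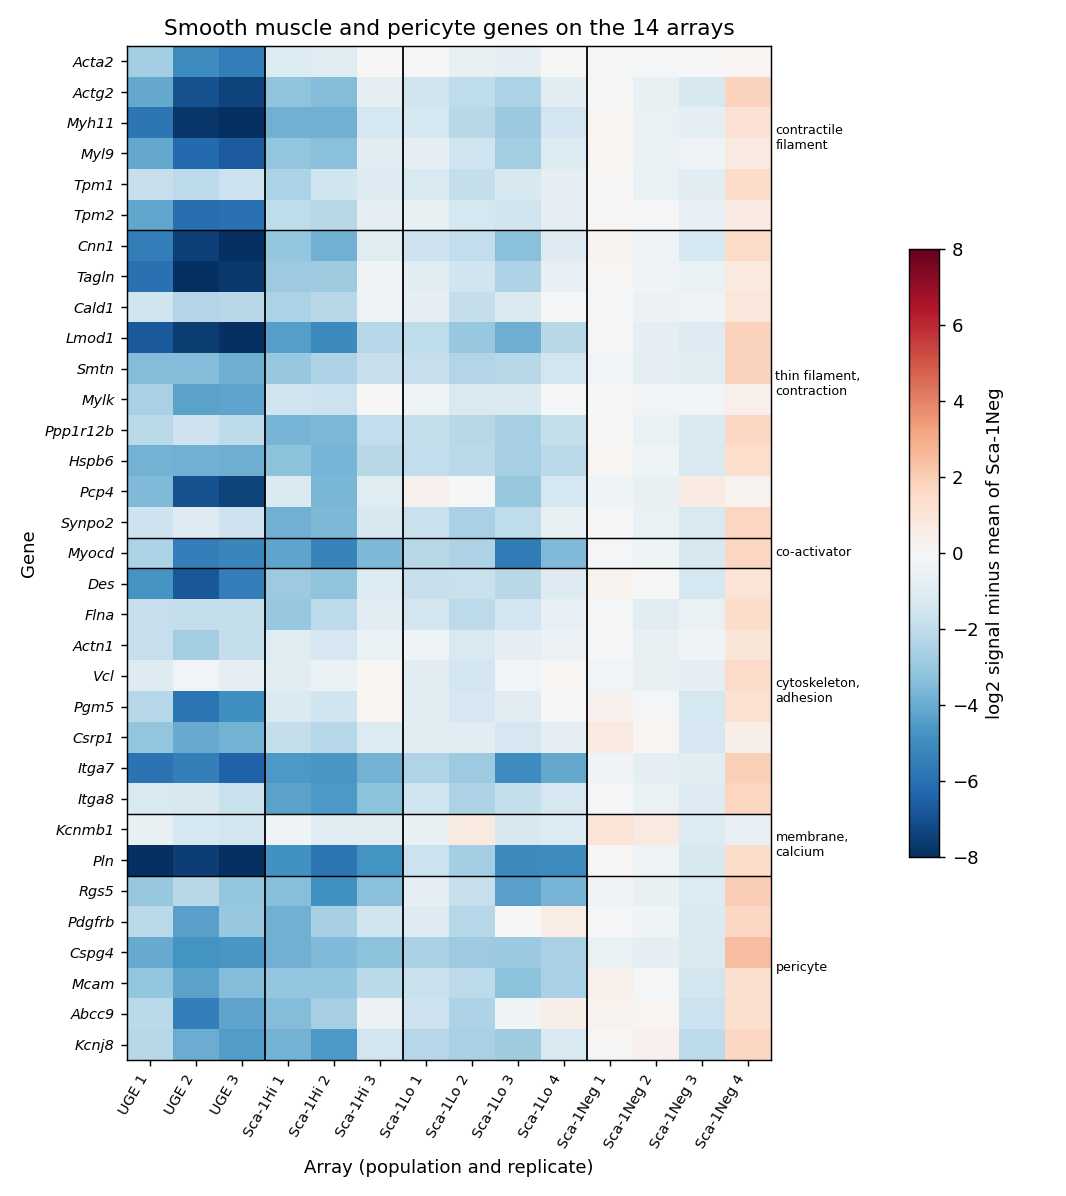
Heat map of the 33 genes (rows, by role) on the 14 arrays (columns, population and replicate), as log2 signal minus the mean of the 4 Sca-1Neg arrays. Blue is lower and red higher than that mean: UGE is lowest for most contractile genes, and Sca-1Neg replicate 4 is the highest of the 14 arrays for 30 of the 33 genes.

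The arrays of a population differed in these genes more than in others, and this bears on all results below. The median within-population SD (log2) of the 33 genes was 0.92 in UGE, 0.92 in Sca-1Hi, 0.71 in Sca-1Lo and 1.10 in Sca-1Neg, against 0.31, 0.32, 0.40 and 0.55 over all 17149 genes. Sca-1Neg replicate 4 was the highest of all 14 arrays for 30 genes, replicate 1 for *Csrp1* and *Kcnmb1*, and replicate 3 for *Pcp4*. Within their populations Sca-1Hi replicate 3 was highest for 32 genes and UGE replicate 1 for 26, and Sca-1Neg replicate 3 was lowest for 26. The mean log2 signal of the 33 genes was 7.75, 6.56 and 6.47 in UGE, 8.17, 7.99 and 9.59 in Sca-1Hi, 9.76, 9.21, 8.77 and 9.75 in Sca-1Lo and 11.12, 10.71, 10.14 and 12.34 in Sca-1Neg. By this mean every Sca-1Neg array lay above every array of the other populations, the closest being Sca-1Neg replicate 3 and Sca-1Lo replicate 1. The adult arrays also carry numbers in the study's own tables, 1 and 2 (5 arrays) or 3 to 5 (6 arrays), whose meaning is not stated. Numbers 1 and 4 are each shared by all 3 adult populations, 2 and 5 by Sca-1Lo and Sca-1Neg, and 3 is held by Sca-1Hi replicate 2 alone. On the 3′ over 5′ ratio of *Gapdh* control probe sets, a sign of RNA quality, Sca-1Hi ran from 3.07 to 3.48 (log2), Sca-1Lo from 1.98 to 3.22, Sca-1Neg from 1.66 to 2.75 and UGE from 1.83 to 2.38. The same ratio of *Actb* ran from 1.59 to 2.77 in Sca-1Hi and 1.72 to 2.27 in Sca-1Lo. It ran from 1.17 to 2.11 in Sca-1Neg and 1.54 to 2.09 in UGE, so on *Actb* the populations overlapped. The part of RNA quality in the results was not tested.

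Fetal epithelium had less of most of these transcripts than Sca-1Neg cells. Of the 33 genes 29 were lower in UGE than in Sca-1Neg and none was higher by limma's moderated test (Benjamini-Hochberg adjusted p under 0.05 over all probe sets and a log2 difference beyond 0.81 either way). Over all genes 12.9% were called lower and 16.3% higher. At an unadjusted p under 0.05 the counts of the 33 were 30 and 0 (18.5% and 23.5% of all genes). The median difference was -3.86 on the log2 scale, against 0.07 over all genes. In 30 genes all 3 UGE arrays lay below all 4 Sca-1Neg arrays, which was so for 15.8% of all genes, and in none did they lie above (20.1% of all genes).

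*Myh11*, the myosin heavy chain of smooth muscle, gave signals of 113, 27.9 and 14.7 in UGE, 439, 432 and 2356 in Sca-1Hi, 2319, 1322, 798 and 2147 in Sca-1Lo and 7107, 4333, 3563 and 13903 in Sca-1Neg. No UGE array reached the lowest adult array, and UGE replicate 1 stood above the other UGE arrays. The difference of UGE from Sca-1Neg was -7.44 ± 0.75 SE, adjusted p = 1.09e-05. *Lmod1* (leiomodin, which nucleates actin filaments) gave 8.48, 4.75 and 2.38 in UGE, 42.5, 26.8 and 182 in Sca-1Hi, 220.3, 112, 60.6 and 190.4 in Sca-1Lo and 843, 544, 446 and 3239 in Sca-1Neg, so that UGE lay below the floor of 20 and was at least 45.1-fold lower (adjusted p = 1.09e-05). *Pln* encodes phospholamban, the brake on the calcium pump of the sarcoplasmic reticulum, and its signals were 11, 15.7 and 4.01 in UGE, 103, 53.6 and 103 in Sca-1Hi, 870.1, 441, 85.3 and 89.2 in Sca-1Lo and 3146, 2259, 1209 and 8144 in Sca-1Neg. All UGE arrays were below the floor, which made UGE at least 145-fold lower than Sca-1Neg (adjusted p = 9.32e-06). *Itga7*, an integrin subunit that binds laminin on muscle cells, was likewise below the floor in UGE, with 13.2, 18.0 and 9.09 in UGE, 32.8, 31.7 and 58.5 in Sca-1Hi, 149, 104, 24.5 and 46.5 in Sca-1Lo and 639.6, 473, 436 and 2934 in Sca-1Neg, and at least 39.4-fold lower (adjusted p = 3.24e-05).

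By role, all 6 contractile filament genes and all 6 pericyte genes fell in UGE, as did 9 of 10 regulators, *Myocd*, 6 of 8 cytoskeleton and adhesion genes and *Pln*. *Tagln* (transgelin), *Cnn1* (calponin), *Actg2* (the gamma actin of smooth muscle) and *Des* (desmin) differed by -7.37, -7.11, -6.16 and -5.70 on the log2 scale, where *Cnn1*, *Actg2* and *Des* each had at least 1 UGE array under the floor of 20. *Tpm1* (tropomyosin), *Flna* (filamin), *Ppp1r12b* (a subunit of myosin phosphatase) and *Cald1* (caldesmon) passed with smaller differences of -1.88, -1.91, -1.98 and -2.05. Among the 17 genes grouped by name as largely restricted to muscle the median was -5.70, and among the 10 contraction and adhesion genes that many other cells also use it was -2.11. The 17 are *Acta2*, *Actg2*, *Myh11*, *Cnn1*, *Tagln*, *Lmod1*, *Synpo2*, *Des*, *Myocd*, *Kcnmb1*, *Pln*, *Pgm5*, *Hspb6*, *Itga7*, *Smtn*, *Pcp4* and *Itga8*, the last also a gene of mesenchyme. The 4 genes that did not pass were *Synpo2*, an actin bundling protein (-1.45 ± 0.71 SE, adjusted p = 0.147), *Vcl* (-0.65 ± 0.53 SE, adjusted p = 0.389), *Itga8*, an integrin subunit of smooth muscle and mesenchyme (-1.42 ± 0.53 SE, adjusted p = 0.0649), and *Kcnmb1* (-1.15 ± 0.55 SE, adjusted p = 0.139). Leaving out any 1 array gave counts of 25 to 31, and 23 of the 29 genes kept the call whichever array was left out. The methods' t-test, without the shared estimate of spread, called 19. The study applied that test after selecting variable and significant genes, a selection not made here, so these counts are not those of its full procedure.

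**Figure D2:**
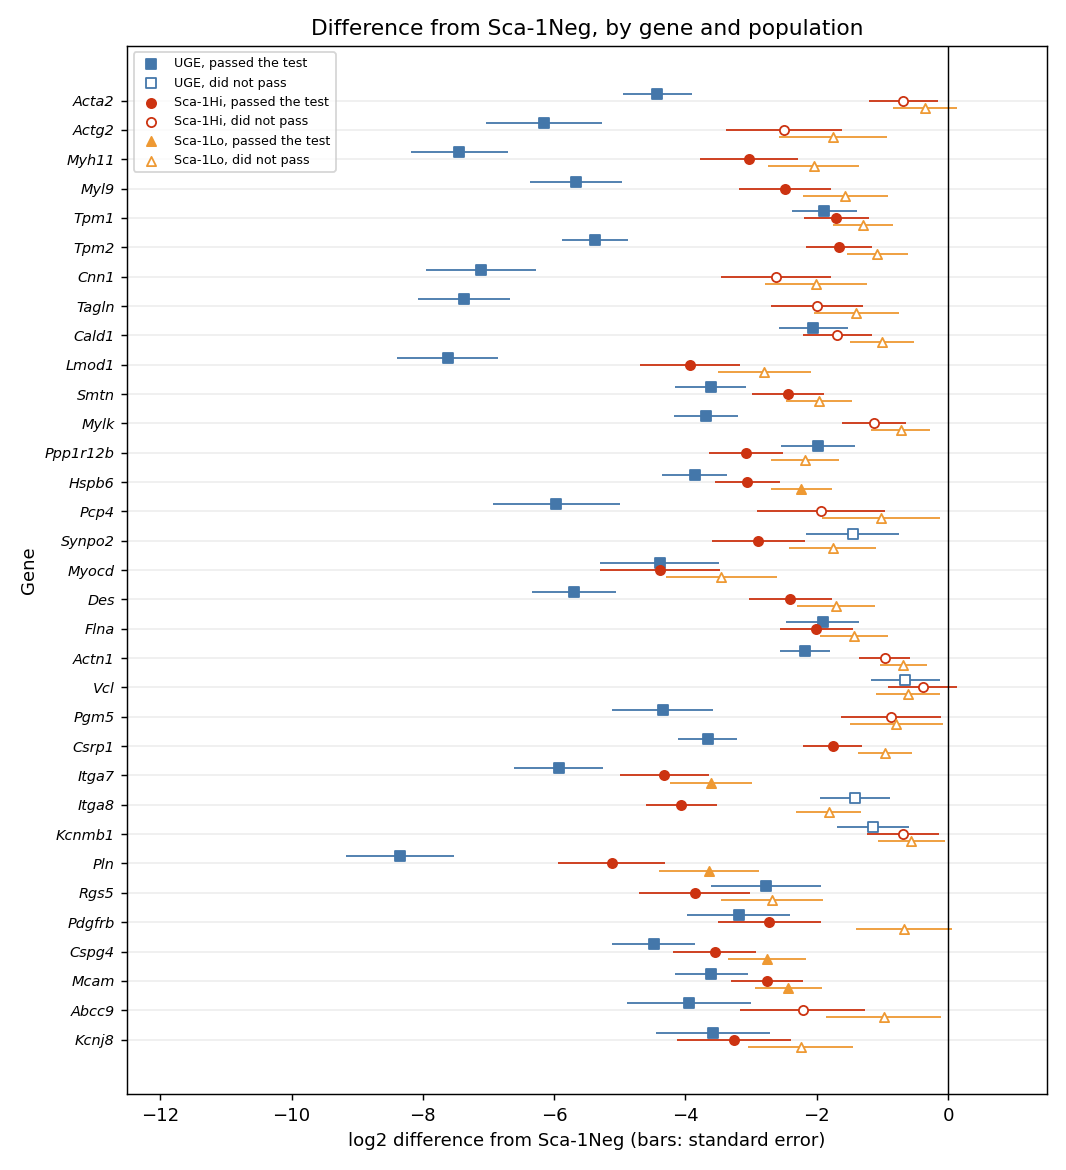
Difference from Sca-1Neg (log2, with standard error) for each of the 33 genes in UGE (squares), Sca-1Hi (circles) and Sca-1Lo (triangles), filled where the test was passed. Every point lies below 0, with 29 UGE, 21 Sca-1Hi and 5 Sca-1Lo points filled.

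Cells with the most surface Sca-1 had less of most of these transcripts than Sca-1Neg cells. In Sca-1Hi 21 of the 33 genes fell and none rose, where 5.21% of all genes were called lower and 6.11% higher. At an unadjusted p under 0.05, 28 were lower and 0 higher (12% and 14% of all genes). The median difference was -2.48, against 0.03 over all genes, and in 19 genes no Sca-1Hi array reached a Sca-1Neg array (8.79% of all genes; 0 genes the other way, against 12.3%). *Myh11* (-3.03 ± 0.75 SE, adjusted p = 0.0193), *Myl9* (-2.48 ± 0.70 SE, adjusted p = 0.036), *Tpm1* (-1.70 ± 0.50 SE, adjusted p = 0.0404) and *Tpm2* (-1.66 ± 0.51 SE, adjusted p = 0.0475) were the contractile filament genes that fell. Of the 10 regulators *Lmod1*, *Smtn* (smoothelin), *Ppp1r12b*, *Hspb6* (a small heat shock protein of muscle) and *Synpo2* fell, from -2.44 (*Smtn*) to -3.93 (*Lmod1*). *Cnn1* (-2.62, adjusted p = 0.0573), *Tagln* (-2.0, 0.0792), *Cald1* (-1.69, 0.0525) and *Mylk*, the myosin light chain kinase (-1.12, 0.144), did not pass, and Sca-1Hi replicate 3 lay within the range of Sca-1Neg in each. *Pcp4* did not pass either, although its Sca-1Hi arrays (1226, 212 and 1366) all lay below its Sca-1Neg arrays (2159, 1766, 4229 and 3350).

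*Myocd* gave 63.3, 8.2 and 9.89 in UGE, 19.4, 8.80 and 30.7 in Sca-1Hi, 77.4, 64.7, 7.68 and 31.3 in Sca-1Lo and 341, 282, 148 and 1215 in Sca-1Neg. In Sca-1Hi its mean signal was below the floor, at least 15.7-fold lower than in Sca-1Neg (adjusted p = 0.00819). *Pln* differed by -5.13 ± 0.82 SE, adjusted p = 0.00193 in Sca-1Hi, the largest difference among the 33 there. *Itga8* had signals of 837, 819 and 579 in UGE, 101, 81.2 and 198 in Sca-1Hi, 643, 359.7, 531 and 772 in Sca-1Lo and 1763, 1356, 969.95 and 6360.2 in Sca-1Neg, so Sca-1Hi was the lowest population and its arrays overlapped with no others. Its difference from Sca-1Neg was -4.06 ± 0.53 SE, adjusted p = 0.000603. *Itga7* (-4.33 ± 0.68 SE, adjusted p = 0.00171), *Des* (-2.40 ± 0.64 SE, adjusted p = 0.0268), *Csrp1* (-1.76 ± 0.44 SE, adjusted p = 0.0216), a LIM protein of the actin skeleton, and *Flna* (-2.0 ± 0.56 SE, adjusted p = 0.0327) were the other adhesion and cytoskeleton genes that fell, while *Actn1* (alpha-actinin, -0.97), *Pgm5* (a protein of adhesion plaques, -0.87) and *Vcl* (-0.39) did not pass.

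*Acta2*, the alpha actin of smooth muscle, did not pass in Sca-1Hi. Its signals were 1773, 362 and 252 in UGE, 5385, 6014 and 12128 in Sca-1Hi, 11168, 7619.99, 7151 and 11815 in Sca-1Lo and 11174, 10629.5, 12046 and 13283 in Sca-1Neg, and the difference of Sca-1Hi from Sca-1Neg was -0.68 ± 0.53 SE, adjusted p = 0.427 (95% interval -1.81 to 0.45). On the adult arrays this probe set lay above 98.85% to 99.96% of all genes. The dimmer *Acta2* probe sets gave another picture: the brighter of them ran from 22.4 to 98.7 in Sca-1Hi and from 134 to 830.0 in Sca-1Neg (-3.04 ± 0.64 SE, adjusted p = 0.00915), and the other differed by -2.86 (adjusted p = 0.0206). *Cald1*, *Mylk* and *Kcnmb1*, whose brightest probe sets did not pass in Sca-1Hi, also had further probe sets that did, at -2.26 and -2.37 for *Cald1*, -2.76 and -2.01 for *Mylk* and -3.53 for *Kcnmb1*. In *Tpm1*, *Tpm2*, *Ppp1r12b*, *Synpo2*, *Myocd*, *Des* and *Csrp1* the brightest set passed and at least 1 other did not. Over the 37 further probe sets of the 33 genes that passed the filter (70 of the 71 did), 18 had another call than the brightest set of their gene in Sca-1Hi, 10 in UGE and 1 in Sca-1Lo, and none had the opposite call. The brightest sets of *Acta2*, *Cald1* and *Abcc9* are of the kind (names ending in _s_at) whose probes can match transcripts of more than 1 gene. Signal from a related transcript was not tested.

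Pericyte genes fell in Sca-1Hi in 5 of 6 cases. *Rgs5*, a regulator of G protein signalling that marks pericytes, gave signals of 685, 1191 and 669.5 in UGE, 538, 197 and 541 in Sca-1Hi, 3303, 1547, 272 and 417 in Sca-1Lo and 4517, 3699, 2626 and 22391 in Sca-1Neg. Sca-1Hi lay below every Sca-1Neg array and differed by -3.86 ± 0.84 SE, adjusted p = 0.0106. *Cspg4*, the NG2 proteoglycan of the pericyte surface, gave 76.3, 43.6 and 48.8 in UGE, 86.2, 105 and 124 in Sca-1Hi, 206, 166, 157 and 199 in Sca-1Lo and 850.1, 708, 554 and 6702 in Sca-1Neg and differed by -3.56 ± 0.64 SE, adjusted p = 0.00374. Sca-1Neg replicate 4 was far above the other arrays. *Mcam* (an adhesion molecule of vessel walls), *Pdgfrb* (the receptor through which vessels recruit pericytes) and *Kcnj8* (the pore of a potassium channel) fell as well, with differences of -2.76, -2.72 and -3.26 on the log2 scale. *Abcc9*, the partner subunit of that channel, did not pass (-2.21 ± 0.95 SE, adjusted p = 0.143).

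The Sca-1Hi count depends on single arrays and on the test. The methods' t-test, here without the study's earlier selection of genes, called 0 of the 33, and a limma fit of only these 2 populations called 13. The count was 8 without Sca-1Hi replicate 2, 11 without Sca-1Hi replicate 1, 13 without Sca-1Neg replicate 1 and 13 without Sca-1Neg replicate 4, and 25 without Sca-1Hi replicate 3. *Cspg4*, *Hspb6*, *Itga7*, *Itga8*, *Lmod1*, *Mcam*, *Pln* and *Ppp1r12b* kept the call whichever array was left out. Within the arrays of study numbers 1 and 2 the median was -2.97 and 26 genes were lower, with 1 Sca-1Hi array, whose spread is taken from the other populations. Within those of numbers 3 to 5 the median was -2.40 with 1 gene lower, and with the number class as a block it was -2.55 with 24. With each study number as a block of its own, where number 3 adds nothing to the comparison, it was -1.77 with 1.

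Sca-1Lo cells lay between Sca-1Hi and Sca-1Neg for most genes, and few differences passed. Of the 33 genes 5 fell and none rose in Sca-1Lo against Sca-1Neg, where 0.828% of all genes were called lower and 1.68% higher. At an unadjusted p under 0.05, 21 were lower and 0 higher (5.72% and 8.92% of all genes). Those that passed the adjusted test were *Itga7* (-3.61 ± 0.63 SE, adjusted p = 0.0113), *Pln* (-3.64 ± 0.76 SE, adjusted p = 0.0285), *Cspg4* (-2.76 ± 0.59 SE, adjusted p = 0.0314), *Mcam* (-2.43 ± 0.51 SE, adjusted p = 0.0296) and *Hspb6* (-2.23 ± 0.46 SE, adjusted p = 0.0256). None is a contractile filament gene. *Hspb6* gave 125, 119 and 116 in UGE, 181, 132 and 379.9 in Sca-1Hi, 448, 386, 278 and 389 in Sca-1Lo and 1939.7, 1364, 756 and 4561 in Sca-1Neg, with Sca-1Lo below Sca-1Neg on every array. *Ppp1r12b* (-2.17, adjusted p = 0.0504), *Myocd* (-3.45, 0.0545) and *Lmod1* (-2.80, 0.063) came next without passing. The median was -1.71, against 0.08 over all genes, and in 13 genes no Sca-1Lo array reached a Sca-1Neg array (2.5% of all genes), and none lay the other way (4.21%). The count was 1 without Sca-1Lo replicate 3, without Sca-1Lo replicate 4 or without Sca-1Neg replicate 1, 2 without Sca-1Neg replicate 2, 3 without Sca-1Lo replicate 1 or Sca-1Neg replicate 4, and 13 without Sca-1Neg replicate 3. *Itga7* was the gene that kept the call throughout. Within study numbers 1 and 2 the median was -1.53 with 17 genes lower, and within 3 to 5 it was -1.82 with 0. Sca-1Lo and Sca-1Neg arrays of the same study number deviated together in all 4 pairs (r from 0.12 to 0.56), and so did some of different numbers. An example is Sca-1Lo replicate 3 with Sca-1Neg replicate 4 (r = 0.45). With the study number as a block 0 genes passed, at a median of -1.71. The methods' t-test and a limma fit of these 2 populations alone also called 0, and array weights gave 14.

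**Figure D3:**
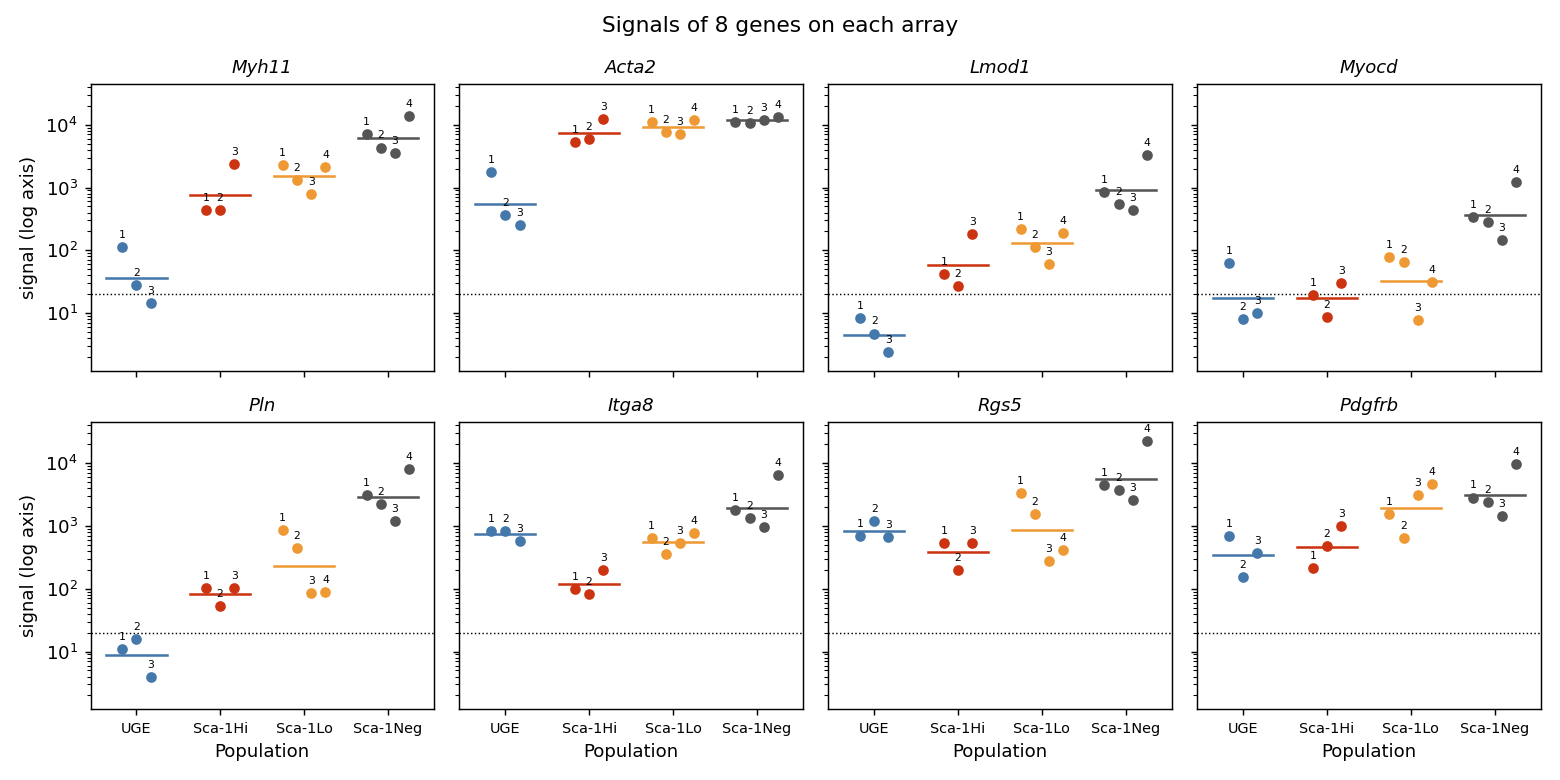
Signals of 8 genes on each array (log axis), with the replicate number above each point and the mean of the log2 values as a bar. The dotted line is the floor of 20: *Lmod1* and *Pln* lie below it in UGE, *Acta2* is at 5385 or more on every adult array, and in Sca-1Lo *Rgs5* is highest on replicates 1 and 2 and *Pdgfrb* on replicates 3 and 4.

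The Sca-1Lo arrays were not of 1 kind in these genes. *Pln* was at 870.1, 441, 85.3 and 89.2, *Rgs5* at 3303, 1547, 272 and 417 and *Itga7* at 149, 104, 24.5 and 46.5, high on replicates 1 and 2 and low on replicates 3 and 4. *Pdgfrb*, at 1526, 643, 3111 and 4680.4, and *Abcc9*, at 333, 192, 887 and 1507, were high on replicates 3 and 4. *Myh11* followed neither split, with 2319, 1322, 798 and 2147. Replicates 1 and 2 are those of study numbers 1 and 2, and the fibroblast markers were higher on replicates 3 and 4: their mean log2 signal (12 genes, among them *Col1a1*, *Dcn* and *Pdgfra*) was 9.37, 8.77, 11.70 and 12.50. The basal markers (9.98, 9.28, 11.16 and 11.11), the endothelial markers (8.69, 8.76, 9.72 and 9.88) and the log2 *Gapdh* ratio (2.54, 1.98, 3.10 and 3.22) split these arrays the same way. The log2 *Actb* ratio (2.27, 1.80, 1.91 and 1.72) did not split these arrays so. The leukocyte markers split them the other way (7.66, 7.17, 6.69 and 6.38), and the part of each was not tested. Over the 11 adult arrays the correlation with the fibroblast mean was 0.62 for *Pdgfrb* and 0.66 for *Abcc9*, and 0.66 for *Vcl*, but -0.24 for *Rgs5*, 0.08 for *Cspg4*, -0.08 for *Mcam* and 0.26 for *Kcnj8*. These are descriptions over arrays that share populations and number classes.

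Sca-1Hi and Sca-1Lo differed in none of the 33 genes by the test, with 2 lower (*Itga8* and *Pdgfrb*) and 0 higher at an unadjusted p under 0.05, which is near the share over all genes (4.62% lower and 3.39% higher). By the adjusted test 0.0175% of all genes were called lower and 0.0816% higher. Of the 33 differences 32 were below 0, with a median of -0.74, against -0.04 over all genes, and of -1.35 without Sca-1Hi replicate 3, -0.47 without Sca-1Hi replicate 2, -0.41 with the replicate number as a block, -0.20 with the study number as a block and -0.13 with array weights. The median was -1.26 within study numbers 1 and 2 and -0.32 within 3 to 5. That of *Itga8* was -2.24 ± 0.53 SE, adjusted p = 0.232 (95% interval -3.39 to -1.09), with no overlap between the groups, and that of *Pdgfrb* was -2.06 ± 0.79 SE, adjusted p = 0.443 (95% interval -3.75 to -0.37). The 95% interval ran from -2.59 to 0.62 for *Myh11* and from -1.46 to 0.80 for *Acta2*. In *Itga8* and *Cspg4* every Sca-1Hi array lay below every Sca-1Lo array, 2 of 33 genes, where 7.15% of all genes did, and in none did they lie above (4.9%). Without Sca-1Neg replicate 4, 1 gene was called lower.

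UGE also lay below Sca-1Hi and Sca-1Lo in most contractile filament genes. Against Sca-1Hi, 15 of the 33 genes were lower and 1 higher (12% and 15.8% of all genes; at an unadjusted p under 0.05, 16 and 1 of the 33, and 18.5% and 22% of all genes), and against Sca-1Lo 20 were lower and none higher (12.2% and 13.4% of all genes; at an unadjusted p under 0.05, 21 and 0 of the 33, and 19.1% and 20.4% of all genes). The UGE arrays lay below all Sca-1Hi arrays in 19 genes (23.9% of all genes) and above them in 2 (28.7%), and below all Sca-1Lo arrays in 19 (19.2%) and above them in 0 (22.2%). *Acta2* differed by -3.75 ± 0.56 SE, adjusted p = 0.00031 from Sca-1Hi and by -4.08 ± 0.53 SE, adjusted p = 8.96e-05 from Sca-1Lo. *Tagln* showed the largest difference of the 33 in both comparisons, -5.38 and -5.98. *Itga8* was the gene that was higher in UGE than in Sca-1Hi (2.64 ± 0.57 SE, adjusted p = 0.00402), on 3 of 3 arrays above all Sca-1Hi arrays. *Ppp1r12b* differed by 1.10 (adjusted p = 0.199) and *Synpo2* by 1.43 (adjusted p = 0.184). None of the 6 pericyte genes passed between UGE and Sca-1Hi, and the intervals were wide, from -0.84 to 3.01 for *Rgs5* and from -2.27 to 1.34 for *Pdgfrb*. *Rgs5* was higher on every UGE array (685, 1191 and 669.5) than on any Sca-1Hi array (538, 197 and 541). The other 5 pericyte genes had differences below 0, and in 2 of them all UGE arrays lay below all Sca-1Hi arrays. *Pdgfrb* and *Abcc9* were lower in UGE than in Sca-1Lo (-2.52 and -2.96). The counts against Sca-1Hi ran from 11 (without UGE replicate 3) to 18 (without Sca-1Neg replicate 4), and those against Sca-1Lo from 15 to 21.

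The wider machinery of smooth muscle was read from 4 lists of further genes. Over all genes 12.9% were called lower in UGE than in Sca-1Neg, 5.21% in Sca-1Hi and 0.828% in Sca-1Lo, and 16.3%, 6.11% and 1.68% higher. Of 14 genes of *Srf* and its partners 8 were lower in UGE than in Sca-1Neg, 1 in Sca-1Hi (near the share over all genes) and 0 in Sca-1Lo. *Srf* itself did not pass in any of them (UGE -0.51, Sca-1Hi -0.32, Sca-1Lo -0.28). In Sca-1Hi *Csrp2*, a LIM protein, was lower (-1.60 ± 0.45 SE, adjusted p = 0.0355) and *Mrtfb*, a relative of myocardin, higher (1.03 ± 0.31 SE, adjusted p = 0.0425). Of 19 measured genes of calcium and contraction signalling 11 fell in UGE, 11 in Sca-1Hi and 2 in Sca-1Lo, and none rose. *Cacna1c*, the pore of the L-type calcium channel, differed by -3.97 ± 0.66 SE, adjusted p = 0.00229 in Sca-1Hi. Those lower in Sca-1Lo were *Gucy1b1* and *Ryr2*, a calcium release channel (-3.38, adjusted p = 0.0296). *Gucy1b1*, a subunit of the nitric oxide receptor, differed by -3.53 ± 0.49 SE, adjusted p = 0.000845 in Sca-1Hi and -2.08 ± 0.45 SE, adjusted p = 0.034 in Sca-1Lo. *Cav1*, the caveolin of membrane pits, fell in UGE (-4.57 ± 0.39 SE, adjusted p = 2.73e-06), while in Sca-1Hi it differed by 0.48 (adjusted p = 0.448).

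Of 24 other cytoskeleton genes of smooth muscle 16 fell in UGE, 8 in Sca-1Hi and 0 in Sca-1Lo. Of the 24, 1 rose in Sca-1Hi, where 6.11% of all genes did: *Sorbs3*, an adaptor protein of adhesion sites (0.93, adjusted p = 0.0475). *Aoc3*, an amine oxidase of the muscle surface, was below the floor in UGE and at least 117-fold lower (adjusted p = 7.94e-06), and in Sca-1Hi it differed by -3.22 ± 0.73 SE, adjusted p = 0.0126. Of 20 other pericyte genes 14 fell in UGE, 13 in Sca-1Hi and 3 in Sca-1Lo. The latter were *Notch3*, the receptor of vessel wall cells (-2.69 ± 0.52 SE, adjusted p = 0.0186), *Gja4*, a gap junction protein (-2.45 ± 0.54 SE, adjusted p = 0.0338), and *Ndufa4l2* (-1.94 ± 0.46 SE, adjusted p = 0.0493). *Notch3* and *Ndufa4l2* did not pass in UGE (-0.54 and -0.60). No gene of the 4 lists was called between Sca-1Hi and Sca-1Lo.

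Markers of other cell types were measured on the same arrays. Over all genes 12.9% were called lower in UGE than in Sca-1Neg, 5.21% in Sca-1Hi and 0.828% in Sca-1Lo, and 16.3%, 6.11% and 1.68% higher. Of 12 endothelial genes 11 were higher in Sca-1Hi and 10 in Sca-1Lo than in Sca-1Neg, and 9 were lower in UGE. Their mean log2 signal was 5.58, 4.15 and 4.05 in UGE, 9.71, 10.02 and 10.50 in Sca-1Hi, 8.69, 8.76, 9.72 and 9.88 in Sca-1Lo and 5.89, 6.64, 6.34 and 6.83 in Sca-1Neg. *Cdh5*, the cadherin of endothelium, gave 133, 14 and 24.1 in UGE, 1536, 1221 and 2351 in Sca-1Hi, 911, 902, 1308 and 1869.6 in Sca-1Lo and 75.3, 146, 131 and 152 in Sca-1Neg. All 12 leukocyte genes were lower in Sca-1Hi, 9 in UGE and 2 in Sca-1Lo (*C1qa* and *C1qb*, of macrophages), with means of 6.63, 6.38 and 6.23 in UGE, 5.94, 5.21 and 5.34 in Sca-1Hi, 7.66, 7.17, 6.69 and 6.38 in Sca-1Lo and 10.58, 11.43, 7.35 and 9.29 in Sca-1Neg. Of 10 basal epithelial genes 6 were higher in UGE, 8 in Sca-1Hi and 5 in Sca-1Lo. None of 12 fibroblast genes passed in Sca-1Hi or Sca-1Lo, and *Mfap5* and *Dpt* were lower in UGE. Of 6 measured Schwann cell genes *S100b* and *Cdh19* were lower in UGE and none passed in Sca-1Hi or Sca-1Lo. Their mean log2 signal was 6.87, 7.99, 5.81 and 9.07 in Sca-1Neg, highest on replicate 4 as the muscle genes were, and 5.57 to 6.58 on all other arrays. Of 9 luminal genes 4 secretory ones (*Pbsn*, *Msmb*, *Tgm4* and *Spink1*) were lower in UGE, by at least 349-fold to at least 561-fold, and *Krt8* and *Cldn7* higher, and *Krt8* was higher in Sca-1Hi. Of 12 striated muscle genes, *Des* among them, 3 were lower in UGE, 3 lower and 2 higher in Sca-1Hi and 1 lower in Sca-1Lo. Of 11 urogenital mesenchyme genes 2 were higher in UGE, 1 higher and 1 lower in Sca-1Hi and 1 higher in Sca-1Lo. The mesenchyme counts in UGE and Sca-1Hi and the fibroblast count in UGE are near the shares over all genes. The part of these cell types in the results was not tested.

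**Figure D4:**
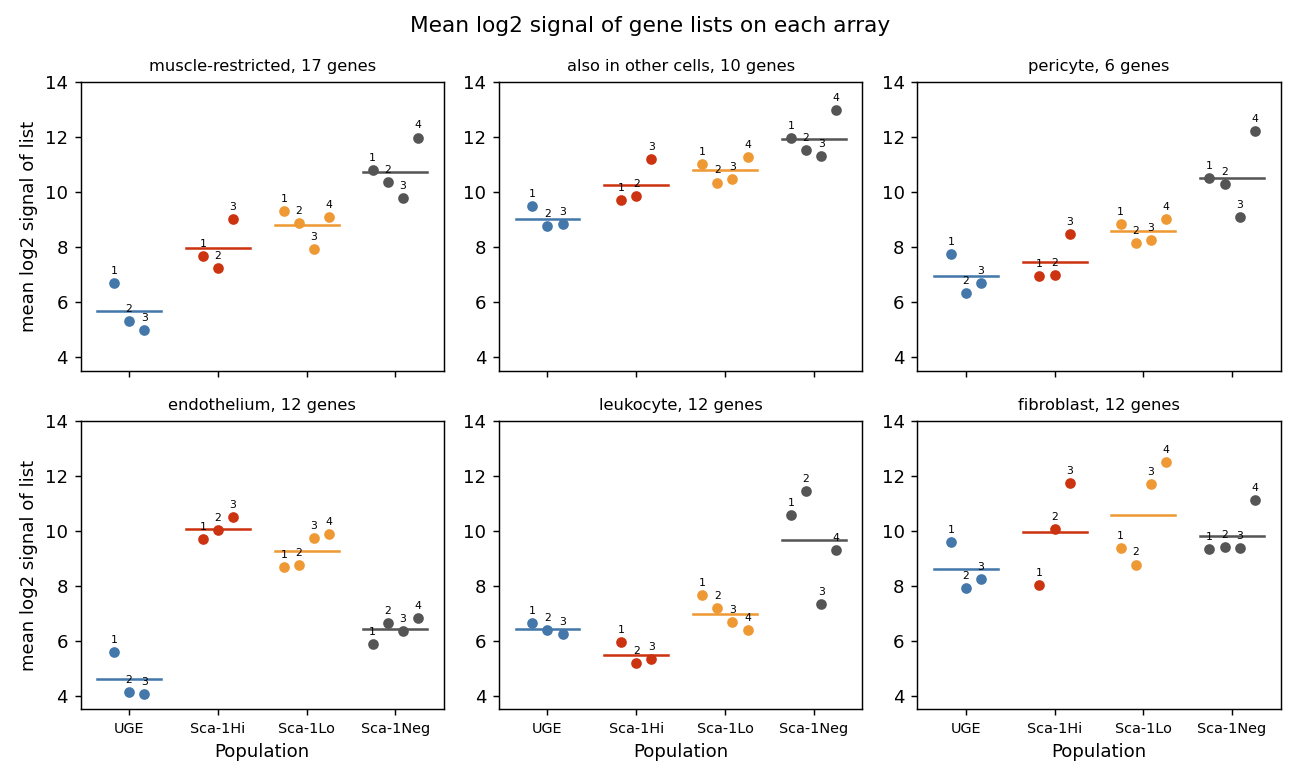
Mean log2 signal of 6 gene lists on each of the 14 arrays, with the replicate number beside each point and the population mean as a bar. The muscle-restricted genes are highest in Sca-1Neg, the endothelial genes in Sca-1Hi and Sca-1Lo, and the fibroblast genes run from 8.77 to 12.50 within Sca-1Lo.

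The genes varied together over the 11 adult arrays. Over their 528 pairs the correlation of log2 signals ran from -0.33 to 0.99 with a median of 0.85, as a description over arrays that share populations. The mean of the 17 muscle-restricted genes correlated with the means of the endothelial (-0.80), leukocyte (0.79), Schwann cell (0.77), fibroblast (0.07), luminal (-0.22) and basal (-0.71) lists. Outside the set the 15 genes most like that mean included *Trpv2*, a calcium-permeable channel (r = 0.99), *Prkg1*, the kinase that cyclic GMP activates (0.99), *Asb2* (0.99), *Foxs1* (0.99), *Mrvi1*, a target of that kinase (0.99), *Aoc3* (0.99), *Jph2*, which ties the surface membrane to the calcium store (0.98), and *Klhl23* (0.98). Over all 17149 genes the median was -0.02 and the 95th percentile 0.77. *Asb2* gave signals of 23.4, 4.24 and 6.47 in UGE, 36.2, 29.2 and 144 in Sca-1Hi, 196, 165, 74.0 and 119 in Sca-1Lo and 912, 866, 447 and 3836 in Sca-1Neg, in the order of the muscle genes. The adult part of that order follows from how these genes were picked, and UGE was not used in the picking. *Klhl23* had the order of the muscle genes only among the adults, since it gave 609, 911 and 727 in UGE, and over all 14 arrays its correlation was 0.21.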

How the data were processed

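RNA of the sorted adult cells and of UGE, for which no sort is named, was amplified in 2 rounds. It was hybridised to Affymetrix MOE430 2.0 arrays, 1 per sample. The deposited values are intensity values, PLIER signals on a linear scale that the authors summarised per probe set. How arrays were normalised to each other is not given in the sources used here, and no per-sample column was left unused (0). From these, log2 signals of probe sets above 20 on at least 1 of 14 arrays were fitted in limma 3.58.1 (R 4.3.3) as 4 population means, with moderated variances and Benjamini-Hochberg adjustment over all 41031 probe sets, and a call needed an adjusted p under 0.05 and a log2 difference beyond 0.81. Control probe sets and probe sets of several genes were left out of gene counts. Groups came from the sample labels. Where a population had a mean signal (linear scale) under 20, or no array over it, the fold is given against that floor as "at least". The number of arrays limits the precision. The script was tested on simulated data. Figures used Python 3.11.15 with pandas 2.3.3 and matplotlib 3.10.9.

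All 33 genes could be named, with up to 4 called genes of each further list per comparison, defining markers, and the 15 genes most like the muscle-restricted mean. *Srf*, and list genes named beyond this rule, were added after their values were seen. The members and lists were chosen with earlier results of these data known. Alternatives changed the filter, added constant, normalisation, centring, test, variance model, samples, replicate block, study number class, probe set choice and single arrays. The study numbers come from the column names of a supplementary table of the study. Deviations from the population means correlated at r from -0.06 to 0.56 over the 8 pairs of adult arrays with the same study number, over 0.1 in 7 of them and in all 4 pairs of Sca-1Lo with Sca-1Neg. Over the 32 pairs with different numbers r ran from -0.68 to 0.70 and was over 0.1 in 12. The medians were 0.32 and -0.20. As the ranges overlap, these values do not settle whether the numbers pair samples.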

Additional observations from a re-analysis of the deposited data

How the results depend on the processing

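No called difference changed its sign under the alternatives run, and the medians kept theirs. Differences that had not passed did change sign, in 1 gene for UGE (*Vcl*), 2 for Sca-1Hi (*Vcl* and *Kcnmb1*) and 3 for Sca-1Lo (*Abcc9*, *Pcp4* and *Pdgfrb*) against Sca-1Neg, in 7 for UGE against Sca-1Hi, 6 for UGE against Sca-1Lo and 16 for Sca-1Hi against Sca-1Lo; *Vcl* in Sca-1Hi was at 0.13 without Sca-1Neg replicate 4. The count of genes lower in Sca-1Lo than in Sca-1Neg (5) was 8 with 16 added before log2, 10 after quantile normalisation, 10 with the replicate block, 14 with array weights, 17 within study numbers 1 and 2, and 0 within study numbers 3 to 5, in a fit of only the 2 groups and by the methods' t-test. That in Sca-1Hi (21) was 13 in a fit of only the 2 groups, 1 within study numbers 3 to 5 and 0 by the methods' t-test. The t-test gave 19 for UGE against Sca-1Neg (29) and 3 for UGE against Sca-1Hi (15), for which array weights gave 23. Array weights called 1 gene lower between Sca-1Hi and Sca-1Lo. The cause was not tested.

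With each array left out in turn, the counts of lower genes ran from 25 to 31 for UGE, 8 to 25 for Sca-1Hi and 1 to 13 for Sca-1Lo against Sca-1Neg, from 11 to 18 for UGE against Sca-1Hi, from 15 to 21 for UGE against Sca-1Lo and from 0 to 1 for Sca-1Hi against Sca-1Lo, and the count of genes higher in UGE than in Sca-1Hi from 1 to 2. Leaving out Sca-1Neg replicate 4 and UGE replicate 1 together, chosen after seeing the data, gave 26, 13 and 2. With the study number as a replicate block, also chosen after seeing the data, 1 gene was lower in Sca-1Hi and 0 in Sca-1Lo than in Sca-1Neg, and 0 between them. Deviations of samples with the same label replicate number in different populations correlated at r from -0.45 to 0.56. Over all populations these label numbers were therefore not taken to pair samples. With the replicate block the counts were 30, 18 and 10 against Sca-1Neg, 15 for UGE against Sca-1Hi and 18 for UGE against Sca-1Lo. Between Sca-1Lo and Sca-1Neg the label numbers join the same arrays as the study numbers, and both blocks gave a median of -1.71. The counts of 10 and 0 there are from fits on different sets of arrays, since the study number block was fitted on the adult arrays alone. Signals near the floor of 20 limit the genes that are low in UGE.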
